A study of Secale cereale x Triticum turgidum subsp. durum with 39 samples.

Results

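In triticale anthers, a set of pollen transcripts was already abundant while the pollen was bicellular. On the Affymetrix Wheat Genome Array they are represented by 139 probe sets, called members here, from 119 transcript clusters. They were chosen on measured values from the 61290 probe sets of the deposited table. A probe set belonged to the set when its mean log2 signal was at least 10 in mature pollen, at least 8 in anthers with bicellular pollen, and at most 6 in anthers at the tetrad stage. Its mean also had to be at most 6 in ovaries and in stigmas at the tricellular stage, and mature pollen had to exceed anthers at the tricellular stage by less than 1.5. Levels in those 6 groups, and every difference among them, are therefore given as descriptions without a test.

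In a grass anther, meiosis yields tetrads of haploid microspores, which are released as uninucleate microspores. An asymmetric mitosis then makes a bicellular grain, in which a large vegetative cell encloses a small generative cell. The generative cell divides into a pair of sperm cells, so that grass pollen is shed in the tricellular state. Pollen genes are commonly described as early, active in the microspore, or late, switched on after that asymmetric mitosis. Many late transcripts are stored in the grain for germination and tube growth.

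The plants were triticale (x Triticosecale Wittmack), the hybrid of rye and durum wheat, cultivar Alta, with no treatment. Anthers, ovaries and stigmas were each sampled while the anthers held tetrads (TET), then uninucleate microspores (UNM), then pollen at the bicellular (BCP) and tricellular (TCP) stages, and mature pollen (MPG in the plots) was collected apart. That gave 13 groups of 3 arrays, 39 in all, labelled as biological replicates; whether replicates came from separate plants or from pools is not given in the sources used here. Kits differed by stage, per the labels' protocols. RNA of all TET organs was purified with PicoPure and labelled in a two-cycle reaction. UNM and BCP organs shared an RNeasy extraction with an InviTrap clean-up and 3' IVT Express labelling. TCP organs and mature pollen shared CsCl extraction and one-cycle labelling. The step from anther UNM to BCP thus lies within one protocol, while stage and protocol cannot be told apart between TET and UNM or between BCP and TCP.

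Signals are RMA values on the log2 scale, so a difference of 1 is a doubling. Signals under 6 are called dim below. Arrays of a group correlated at r between 0.978 and 0.996 over probe sets, and each of the 39 arrays was closest to its own group. An actin control probe set of the array (AFFX-Ta-actin-3_at), actin being abundant in pollen, averaged 4.01 ± 0.12 (SD, n = 3) in anthers at TET and 4.67 ± 0.09 at UNM. It averaged 12.52 ± 0.56 at BCP, 13.96 ± 0.03 at TCP and 14.07 ± 0.04 in mature pollen. Its mean was no higher than 5.19 in any ovary or stigma group. The xyloglucan endotransglucosylase/hydrolase (XTH) probe set Ta.30703.1.S1_at, a cell wall enzyme, averaged 9.01 ± 0.26 in stigmas and 9.17 ± 0.16 in ovaries at UNM, against 6.84 ± 0.22 in anthers at UNM and 6.34 ± 0.15 in mature pollen. The XTH probe set was thus lower in the male samples given here than in the pistil samples, while the actin probe set stood above the pistil samples only in anthers at BCP and TCP and in pollen. A petC probe set (Ta.861.1.S1_at), for the Rieske protein of photosynthetic electron transport, was read in anthers as a marker of green anther wall. It averaged 12.65 ± 0.12 in anthers at UNM, 11.17 ± 0.42 at BCP and 7.69 ± 0.14 at TCP, and 6.18 ± 0.43 in mature pollen. The petC signal was not particular to anthers, with means of 10.79 in ovaries and 9.03 in stigmas at BCP. Tapetum markers are not named in the annotation used here.

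Most members were dim in every organ up to the uninucleate stage, and by the rule all were bright in anthers at BCP. In anthers at UNM 120 of the 139 had a mean under 6. Their median signal was 4.13, 4.23 and 4.07 on the 3 anther TET arrays and 4.27, 4.43 and 4.27 on the 3 anther UNM arrays. On the anther BCP arrays it was 10.50, 9.67 and 11.53. It was 12.80, 12.42 and 12.55 on the anther TCP arrays and 12.37, 12.35 and 12.45 on the mature pollen arrays. The BCP arrays thus lay between the early and the late anther samples and far closer to the late ones, and they differed most among themselves. Across the 24 ovary and stigma arrays the median of the members stayed between 3.94 and 4.42. In bulk organs, fewer cells of a type and less RNA per cell cannot be told apart, so a low anther signal may stand for either.

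**Figure D1:**
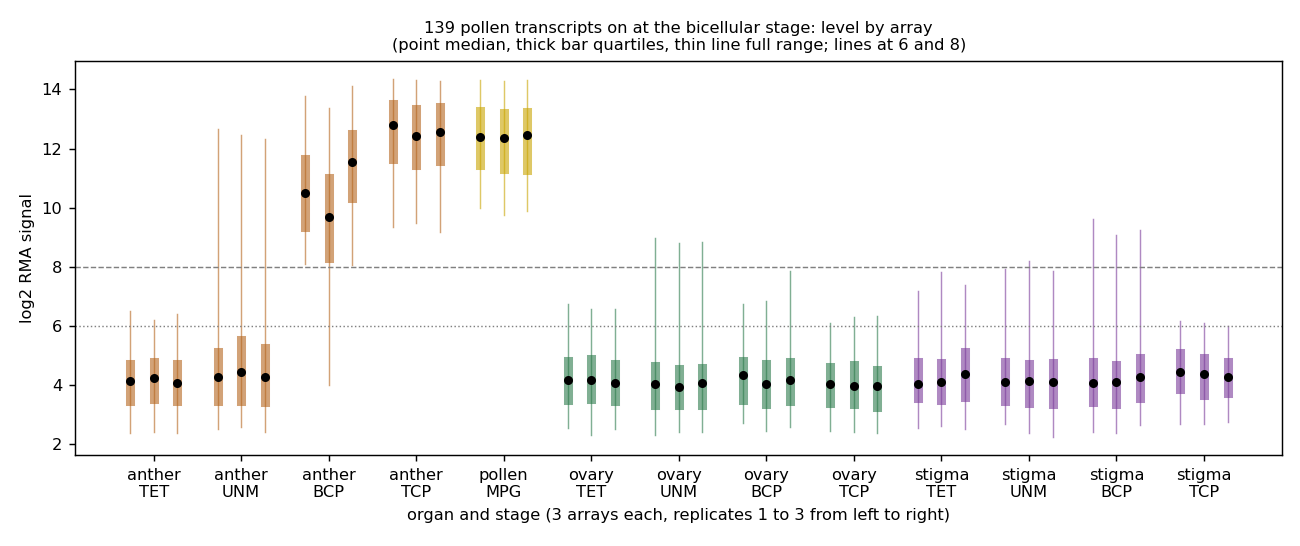
Signal of the 139 members on each of the 39 arrays (vertical axis, log2 RMA signal; horizontal axis, organ and stage with replicates 1 to 3 from left to right). Points are medians, thick bars quartiles and thin lines the full range; the dotted line is at 6 and the dashed line at 8. The 3 anther BCP medians, 10.50, 9.67 and 11.53, are the most spread of any group.

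From UNM to BCP the signal of a member in anthers was higher by a median of 6.07 on the log2 scale, with a range over the members from 0.51 to 10.60. Since most UNM signals were dim, no fold is given. Of the 139 members, 136 were higher by at least 1, against 4.06% of all 61204 probe sets tested, and none was lower by at least 1 (4.31%); the rule required a high BCP level, so nothing is read from this contrast. The 3 members with a smaller step were Ta.10434.1.A1_at, Ta.3717.1.A1_at and Ta.3429.1.A1_at, named after their values were seen. All 3 were already at 7.59 or more in anthers at UNM. Against the pistil organs of the same stage, anther BCP was higher by a median of 6.21 over ovary and 6.26 over stigma, and all 139 members were higher by at least 1 in both. Over all probe sets, 6.40% and 7.42% were higher by at least 1, and 7.32% were lower in each.

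The members with the lowest UNM signals show the step in its plainest form. Ta.16017.1.S1_at read 2.66, 2.68 and 2.38 on the anther UNM arrays and 9.23, 8.41 and 10.01 on the BCP arrays. Ta.4246.1.S1_x_at read 2.60, 2.62 and 2.51 at UNM and 11.72, 11.94 and 12.28 at BCP. Neither group of arrays overlapped the other. The pick by low UNM signal and the BCP threshold of 8 favour that, so nothing is read from it. The first then reached a mean of 12.82 in mature pollen, while the second was at 12.15 in anthers at TCP and 12.34, 12.29 and 12.74 in mature pollen, close to where it stood at BCP.

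**Figure D2:**
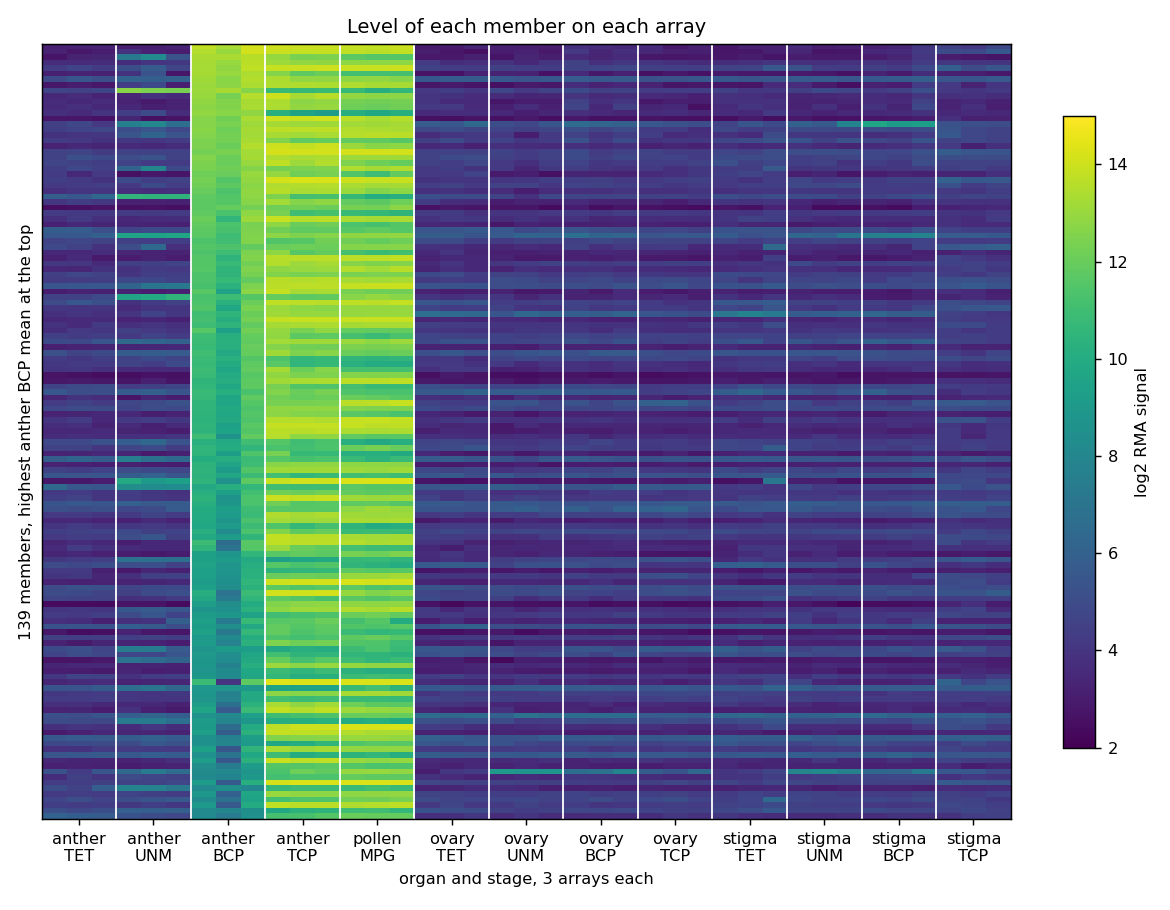
Log2 RMA signal (colour scale) of each member (rows, ordered by the anther BCP mean) on each array (columns, 3 per organ and stage). The rows are dark in nearly all columns before anther BCP and in the pistil organs, and the middle column of anther BCP, replicate 2, is the darkest of its 3.

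The anther BCP arrays differed by up to 3.63-fold in the median of the members. Of the 139 members, 134 (96.4%) were highest in replicate 3, 131 (94.2%) were lowest in replicate 2, and 128 stood in the order 3, 1, 2. The median range of a member over the 3 arrays was 1.57, with extremes of 0.15 and 7.79, and 108 members spanned at least 1. In the other anther groups and in pollen the same median range was 0.41 at UNM, 0.27 at TCP and 0.18 in mature pollen. All 139 members were at 8 or more in replicates 1 and 3, but only 110 were in replicate 2.

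Most other abundant transcripts of these arrays did not share that order. Among 9686 other probe sets with an anther BCP mean of at least 8, the median range was 0.31, 27.8% were highest in replicate 3 and 36.3% were lowest in replicate 2. The arrays correlated at r between 0.985 and 0.992 over probe sets. The hybridisation controls averaged 10.78, 10.86 and 10.73 in replicates 1, 2 and 3, and the poly-A controls 6.70, 6.50 and 6.35. The actin probe set AFFX-Ta-actin-3_at followed the members instead, at 12.54, 11.95 and 13.08, as did AFFX-Ta-actin-M_at at 9.45, 8.86 and 10.37. The petC probe set, by contrast, read 11.57, 11.20 and 10.73. The part of pollen age or pollen content in these differences was not tested.

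The order of the replicates was not particular to the 139. A further 75 probe sets met every other criterion with an anther BCP mean between 6 and 8, and 99 did so with a mean under 6. The first group had medians of 7.12, 5.79 and 7.88 on the 3 BCP arrays, with 96.0% highest in replicate 3. The second had medians between 4.43, in replicate 2, and 5.19, in replicate 3, with 78.8% highest in replicate 3. The cut at 8 therefore falls within a continuous run of BCP levels, on a step where a single array moves the level. In mature pollen all 3 groups were alike in level, with medians of the array values between 11.93 and 12.45. Their medians differed more in anthers at TCP, at 12.42 to 12.80 for the members, 11.71 to 11.76 for the middle group and 11.37 to 11.57 for the late one.

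**Figure D3:**
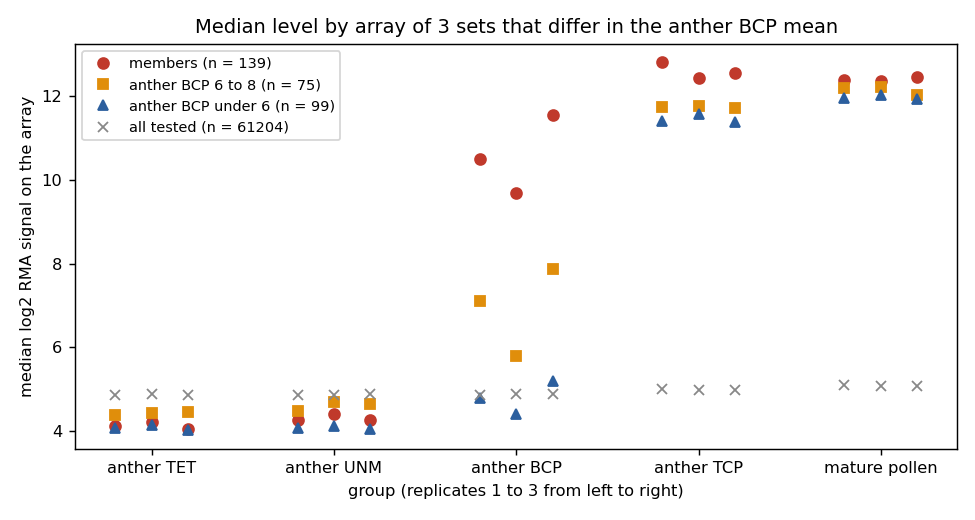
Median log2 RMA signal (vertical axis) of 3 sets that differ in the anther BCP mean, and of all probe sets tested, on each anther and mature pollen array (replicates 1 to 3 from left to right). At anther BCP the members (circles), the 75 probe sets at 6 to 8 (squares) and the 99 under 6 (triangles) are lowest in replicate 2 and highest in replicate 3, while the crosses for all 61204 stay between 4.87 and 4.90.

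The largest spread between BCP arrays belonged to Ta.10403.1.S1_at, which also had the highest mature pollen mean of the set. It read 3.32, 3.32 and 3.41 in anthers at UNM and 10.85, 4.00 and 11.79 at BCP. It read 14.36, 14.33 and 14.28 at TCP and 14.31, 14.23 and 14.30 in mature pollen. On replicate 2 of BCP it was as dim as before, and its BCP mean of 8.88 ± 4.25 rests on replicates 1 and 3. Ta.10300.1.S1_at, with an SD of 2.71, read 10.89, 6.61 and 11.63 at BCP. In both, replicate 2 alone was below 8.

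When the rule was applied without replicate 2 of anther BCP it chose 163 probe sets, the 139 among them. Their median on the array left out was 9.16, with 110 at 8 or more and 21 under 6. Without replicate 1 it chose 133, with a median of 10.53 on that array and 132 at 8 or more. Without replicate 3 it chose 126, and all 126 were at 8 or more on replicate 3, with a median of 11.67. The share at 8 or more on the array left out was thus greatest for replicate 3 and least for replicate 2. This repeats the order of the replicates given above and is no separate check of membership.

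Signals were mostly higher in the samples after the bicellular stage. The protocol changed between BCP and TCP as well, so stage and protocol cannot be told apart here. The rule also allowed a BCP mean as low as 8 while it asked for at least 10 in mature pollen. From anther BCP to anther TCP the members differed by a median of 1.83, or 3.56-fold, with a range from -3.17 to 5.91. Of the 139, 99 were higher by at least 1 (10.4% of all probe sets), 3 were lower by at least 1 (15.6%) and 37 lay within 1. Without anther BCP replicate 2 the number higher was 86 and the median was 1.32, and without replicate 3 they were 105 and 2.26. The difference was larger for members that were lower at BCP. Those with a BCP mean of 8 to 10 (n = 55) differed by a median of 2.65, those at 10 to 12 (n = 56) by 1.67 and those at 12 or above (n = 28) by 0.35. The BCP level enters both sides of this comparison, and the scale has a top near 15, so the order is given as a description.

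Between anthers at TCP and mature pollen the levels of most members differed by less than 1, as did those of most probe sets. The median difference of mature pollen from TCP was -0.15 for the members and 0.19 over all 61204 probe sets tested. Of the members, 113 lay within 1, where 51554 of the 61204 probe sets did. A further 20 were lower by at least 1 (11.8% of all probe sets) and 6 higher by at least 1 (4.00%). The rule itself limited how far mature pollen could exceed TCP, so nothing is read from how close the levels were. Across both steps, 82 members were higher at TCP than BCP and then held within 1, 29 stayed within 1 throughout, 12 were higher at TCP and then lower in pollen, 7 were level and then lower, and 5 were higher at each step. The remaining 4 members took other paths. From BCP to mature pollen directly the median difference was 1.69, with 91 higher by at least 1 (20.6% of all probe sets), 6 lower by at least 1 (21.2%) and 42 within 1. Without BCP replicate 2 the 91 became 76. The comparison of BCP with mature pollen crosses the same change of protocol.

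Ta.5588.1.A1_at and Ta.10198.2.A1_at were named for a high mature pollen mean and for the largest differences from BCP to mature pollen. That pick favours a large gap, so nothing is read from it about bright pollen transcripts in general. Over the members, the median mature pollen level was 11.85 for those with a BCP mean of 8 to 10. It was 12.43 for those at 10 to 12 and 12.84 for those at 12 or above. Ta.5588.1.A1_at read 9.11, 5.66 and 10.16 on the anther BCP arrays and averaged 14.26 in mature pollen. Ta.10198.2.A1_at read 9.10, 6.58 and 9.95 at BCP and averaged 14.24. These had the largest differences from BCP to mature pollen in the set, and no BCP array reached the pollen level. Ta.3717.1.A1_at, the second brightest in pollen, read 10.44, 8.58 and 11.77 at BCP, 13.89, 14.10 and 14.05 at TCP and 14.26, 14.27 and 14.26 in mature pollen.

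In 3 members the anther mean was lower by at least 1 at TCP than at BCP, where 15.6% of all probe sets were. The protocol changed between these stages. Ta.4264.1.A1_at read 4.40, 5.00 and 3.65 in anthers at UNM and 12.89, 12.68 and 12.87 at BCP. It then read 10.26, 9.49 and 9.16 at TCP and 10.10, 9.75 and 10.22 in mature pollen. Its BCP arrays lay above all arrays of the later groups. It was picked for a large fall from BCP to mature pollen, so nothing is read from that. Its replicates at BCP did not take the order seen in most members. Ta.10434.1.A1_at, picked in the same way, read 13.06, 13.28 and 12.64 at BCP. It read 10.74, 10.68 and 10.78 at TCP, and 10.72, 10.19 and 10.62 in mature pollen. Its UNM mean was already within 0.51 of its BCP mean, and its UNM and BCP arrays overlapped. The third with a TCP mean lower by at least 1 was Ta.15997.1.S1_at, named after its values were seen, at means of 13.22 at BCP, 12.16 at TCP and 11.13 in mature pollen. It was the member that stood lower by at least 1 at each step.

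**Figure D4:**
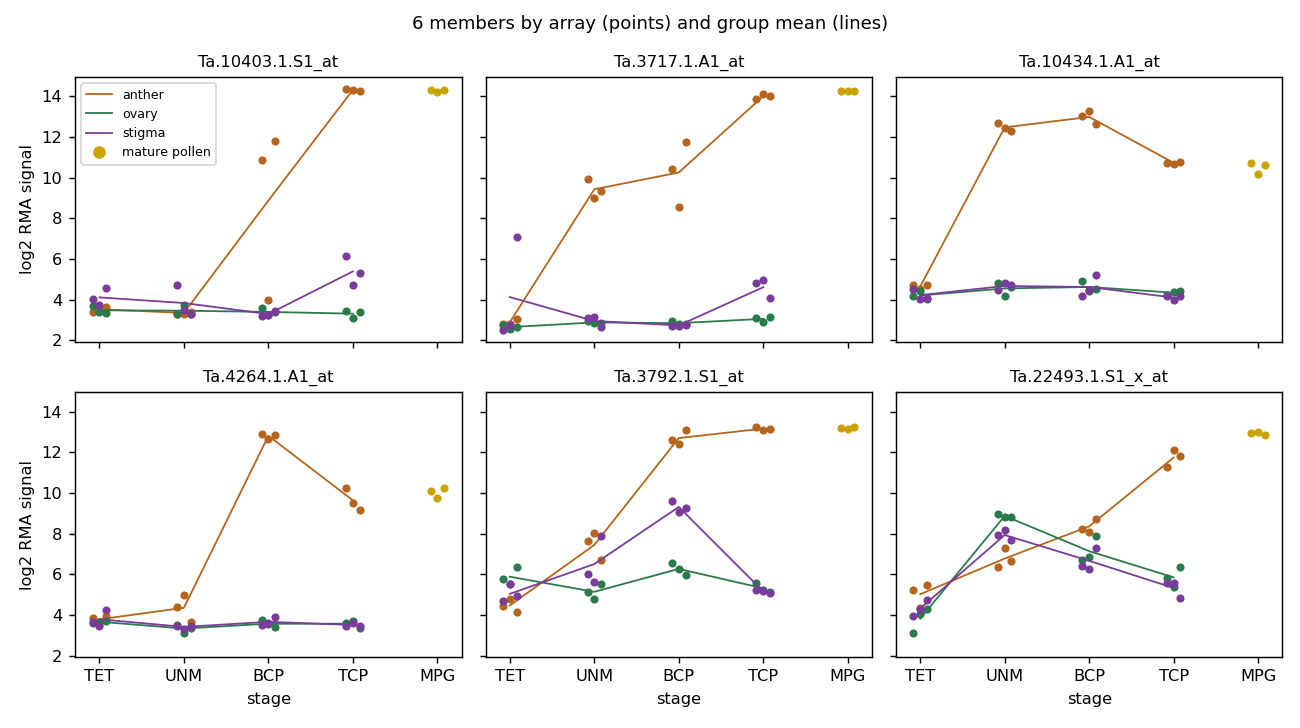
Log2 RMA signal (vertical axis) of 6 members by stage (horizontal axis), with a point per array and lines through the group means of anther, ovary and stigma; mature pollen is at the right. Ta.10403.1.S1_at is dim on replicate 2 of anther BCP, and Ta.3792.1.S1_at has a stigma maximum at BCP. Ta.10434.1.A1_at and Ta.4264.1.A1_at have their highest mean in anthers at BCP, the former with overlapping UNM arrays.

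The arrays of the uninucleate stage were not used to choose the members, so it can be tested whether some were already on. The rule did favour probe sets bright in later anthers and dim in later pistils, so the members' shares below are not independent of it. At UNM 137 of the 139 had an ovary mean under 6 and 135 a stigma mean under 6, which leaves little room for a lower call. Anthers at UNM were compared with ovaries and with stigmas at UNM, which shared their protocol. The test was limma over all 39 arrays. Calls needed a difference of at least 1 either way and an adjusted p (Benjamini-Hochberg over the 61204 probe sets) under 0.05. Against ovary, 27 of the 139 members (19.4%) were called higher in anther, where 6.06% of all probe sets were, and 2 (1.44%) were called lower, where 6.48% were. Against stigma, 23 (16.5%) were called higher, where 6.74% were, and 2 were called lower, where 5.98% were. The median difference was 0.14 against ovary and 0.05 against stigma, beside -0.02 and -0.05 over all probe sets, and 119 members had both means under 6 in each comparison. Most members were therefore dim in all 3 organs at this stage and a minority stood out.

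Higher than both pistil organs at UNM were 22 members, where 5.15% of all probe sets (3154) were. Of these, 6 had an anther UNM mean of 8 or more, 9 lay between 6 and 8, and 7 were under 6. A further 5 were called higher than ovary alone and 1 higher than stigma alone. By anther UNM level, 120 of the 139 were under 6, 13 between 6 and 8 and 6 at 8 or more. Among the probe sets reaching 6 to 8 in anthers at BCP, 6 of 75 (8%) were called higher than ovary and 8 (10.7%) higher than stigma. Among those under 6 at BCP, 3 of 99 (3.03%) were called in each comparison. The difference between these shares was not tested.

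Ta.10434.1.A1_at was the brightest member at UNM. It read 12.67, 12.46 and 12.31 in anthers, while its ovary and stigma UNM means were 4.56 and 4.68. The log2 difference was 7.92 ± 0.20 (SE) over ovary (limma, adjusted p = 2.7e-26), and 7.80 over stigma (adjusted p = 4.6e-26). It had thus come within 0.51 of its BCP mean one stage earlier than most members.

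Ta.3717.1.A1_at read 9.95, 9.01 and 9.35 in anthers at UNM, and its means were 2.89 in ovary and 2.96 in stigma. It was higher by 6.55 ± 0.63 (SE) over ovary (limma, adjusted p = 1.1e-10) and by 6.48 over stigma (limma, adjusted p = 1.3e-10). The SE comes from the fit over all groups, whose residuals include a stigma TET array at 7.09 beside 2.53 and 2.78 on the others. Ta.3924.1.A1_at read 10.57, 10.44 and 10.46 in anthers at UNM and was higher by 6.06 over ovary and 5.69 over stigma (limma, adjusted p = 5e-19 and 2.4e-18). It read 11.77, 11.53 and 12.80 at BCP, 12.45, 11.17 and 11.19 at TCP, and 10.65, 10.07 and 10.18 in mature pollen, so its pollen and UNM arrays lay close together.

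The other 3 members at 8 or more in anthers at UNM, named after their values were seen, were Ta.28621.1.S1_at, Ta.9142.1.A1_at and Ta.3430.1.S1_s_at. Ta.28621.1.S1_at read 9.60, 9.93 and 10.49 and was higher by 6.23 over ovary and 6.39 over stigma. Ta.9142.1.A1_at read between 9.50 and 9.64 and was higher by 3.57 and 3.08. Ta.3430.1.S1_s_at read 8.44, 8.26 and 8.30 and was higher by 2.81 and 3.86. All 3 were called in both comparisons, and no anther array overlapped the ovary or stigma arrays. These 3 were picked for a high anther UNM level, and the share without overlap over all probe sets is not given. Nothing is therefore read from the lack of overlap of these 3. In contrast to Ta.10434.1.A1_at and Ta.3924.1.A1_at, they went on to higher means in mature pollen, at 12.77, 12.85 and 11.61.

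**Figure D5:**
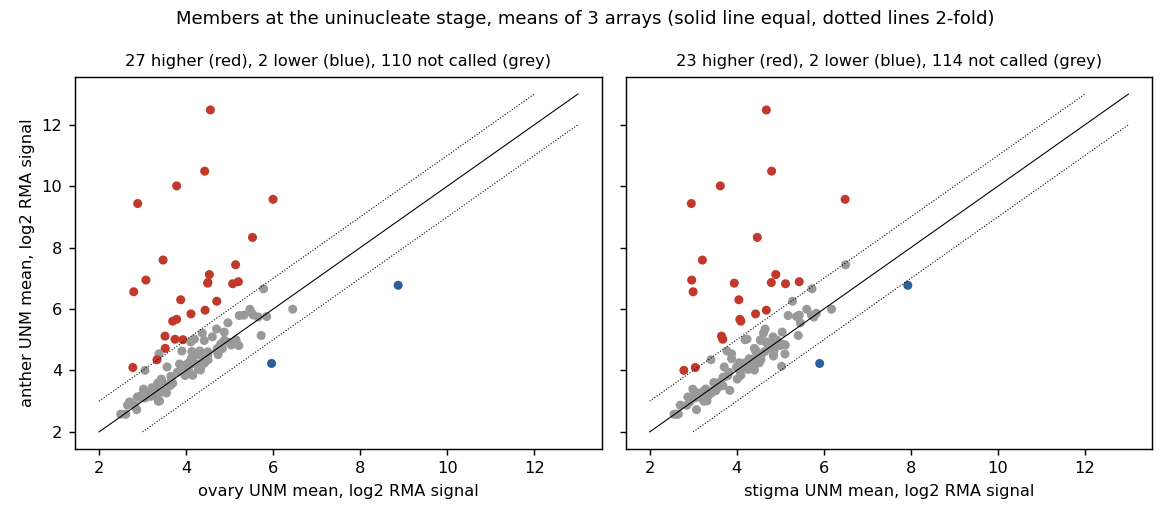
Mean log2 RMA signal of each member in anthers at UNM (vertical axis) against its mean in ovaries (left) and stigmas (right) at UNM, each mean over 3 arrays. Red points were called higher in anther (27 and 23), blue points lower (2 and 2) and grey points were not called; the solid line marks equal signal and the dotted lines a difference of 1.

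The same 2 members were called lower in anther than in both pistil organs at UNM. Ta.22493.1.S1_x_at read 6.37, 7.31 and 6.64 in anthers, 8.98, 8.80 and 8.83 in the UNM ovaries and 7.93, 8.17 and 7.69 in stigmas. Anther was lower by a log2 difference of -2.10 than ovary (limma, adjusted p = 3.9e-06) and of -1.16 than stigma (limma, adjusted p = 0.0065), the latter call being lost without anther UNM replicate 1 (-0.96, adjusted p = 0.053). This probe set, with a mean of 12.94 in mature pollen, thus also gave a signal in young pistils, at a stage the rule did not read. Its type (_x_at) may cross-hybridise, and whether pistil and pollen hold the same transcript was not tested. Ta.11570.1.A1_at was lower in anther by -1.73 against ovary (limma, adjusted p = 5.8e-07) and -1.68 against stigma (limma, adjusted p = 1e-06). It read 4.01, 4.62 and 4.05 in anthers at UNM, and its higher pistil levels reached back to TET, where stigmas read 7.16, 7.81 and 7.38 and ovaries 6.73, 6.57 and 6.40.

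Of the 19 members with an anther UNM mean of 6 or more, 4 were not called higher than both pistil organs. Besides Ta.22493.1.S1_x_at these were Ta.3792.1.S1_at, TaAffx.92790.1.S1_at and TaAffx.12419.1.S1_at, the latter pair named after their values were seen. TaAffx.92790.1.S1_at differed by 1.55 from ovary and 0.97 from stigma, and TaAffx.12419.1.S1_at by 0.88 and 0.93. Ta.3792.1.S1_at differed by 2.31 from ovary and 0.94 from stigma. For all 3 the difference from stigma passed the adjusted p but not the minimum size.

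Few members differed among the pistil groups. Between stigma and ovary at UNM, 1 member was called higher in stigma (1.11% of all probe sets) and 1 lower (1.99%). From UNM to BCP, 1 member rose in ovary (0.833% of all probe sets) and 1 fell (0.569%), while in stigma 2 rose (1.89%) and 1 fell (1.72%). The shares of members, 0.719% for a single one and 1.44% for 2, were near these background shares.

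Ta.3792.1.S1_at was the member with the clearest pistil signal. It read 6.01, 5.62 and 7.87 in stigmas at UNM, 9.63, 9.07 and 9.24 at BCP, and 5.20, 5.19 and 5.06 at TCP. From UNM to BCP the stigma level rose by 2.81, or 7.01-fold (limma, adjusted p = 2.9e-07), with no overlap between the arrays. The ovary arrays of this member read 5.14, 4.77 and 5.50 at UNM and 6.56, 6.26 and 5.97 at BCP. Anthers read 7.62, 8.03 and 6.68 at UNM and 12.61, 12.40 and 13.08 at BCP, so anther and stigma were both higher at BCP than at UNM. The stigma step exceeded the ovary step by 1.68 ± 0.49 (SE; limma, adjusted p = 0.034), the single member called in that test, where the background was 1.94% higher and 1.35% lower. That call was lost when any of 7 of the 12 arrays was left out. At UNM stigma was higher than ovary by 1.37 (limma, adjusted p = 0.0079), a call lost without stigma UNM replicate 3, which gave 0.68 (adjusted p = 0.20), and without ovary UNM replicate 2, which gave 1.18 (adjusted p = 0.070).

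Ta.9142.1.A1_at rose in stigma from 6.30, 6.10 and 7.07 at UNM to 7.68, 7.71 and 7.79 at BCP, by 1.24 (limma, adjusted p = 0.00033). Ta.22493.1.S1_x_at fell from UNM to BCP in both organs. Its ovary arrays read 6.70, 6.85 and 7.87 at BCP, a difference of -1.74 (limma, adjusted p = 0.0011). Its stigma arrays read 6.41, 6.27 and 7.30, a difference of -1.27 (limma, adjusted p = 0.0081) that missed the threshold without stigma UNM replicate 2 (adjusted p = 0.052) or stigma BCP replicate 2 (adjusted p = 0.071). In ovary the member that rose was Ta.3816.1.S1_at, by 1.19 (limma, adjusted p = 0.00025). It went from a range of 2.81 to 3.02 at UNM to 4.55, 3.78 and 4.06 at BCP, all dim. Without ovary BCP replicate 1 the difference was 0.98. The other member of its cluster was not called. Ta.3430.1.S1_s_at was lower in stigma than in ovary at UNM by -1.05 (limma, adjusted p = 0.00053), and by -0.89 and -0.91, short of the minimum size, without ovary UNM replicate 1 or stigma UNM replicate 2.

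Pistil means at TCP are described without a test, since the rule capped them. Of the 139 members, 108 (77.7%) had a higher mean in stigma than in ovary at TCP, where 56.3% of all probe sets did. For the 42 members with a mature pollen mean of 13 or more, the median was 4.70 in stigma and 3.92 in ovary at TCP, beside 3.95 and 3.96 at BCP. For the 27 members with a pollen mean of 10 to 11 it was 4.12 and 4.15 at TCP. All these medians are dim. Ta.10403.1.S1_at read 6.17, 4.70 and 5.31 in stigmas at TCP, where its ovary mean was 3.32. The rule capped these means at 6, so the sizes are bounded by the choice of members. The stigma cap alone left out 25 probe sets that met all other criteria, with stigma TCP means from 6.02 to 10.52 and a median mature pollen mean of 13.62, where the ovary cap alone left out 2. The protocol changed between BCP and TCP in both organs, and whether pollen adhered to these stigmas was not tested.

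The annotation paired 4 members with a gene symbol, each a locus number without a description, so no function is given. LOC543019 (Ta.4320.1.S1_at) read 5.06, 5.49 and 4.46 in anthers at UNM, 9.89, 9.17 and 10.48 at BCP, 13.80, 13.61 and 13.64 at TCP and 13.30, 13.18 and 13.25 in mature pollen. It was called higher in anther than in ovary at UNM, by 1.07 (limma, adjusted p = 6.3e-05), but not than in stigma, where the difference was 0.81. Its anther UNM arrays were all dim, and the difference from ovary was close to the minimum of 1. LOC543456 (Ta.14414.1.S1_at) read 10.42, 8.69 and 11.33 at BCP and 13.17, 13.06 and 13.13 in mature pollen. LOC780654 (TaAffx.92758.1.S1_at) read 8.95, 6.09 and 9.68 at BCP and 12.79, 12.86 and 12.87 in mature pollen. LOC778396 (TaAffx.10868.1.A1_at) was dimmer, at 8.51, 7.98 and 9.01 at BCP, 9.75, 10.03 and 10.55 at TCP and 11.49, 11.69 and 11.63 in mature pollen. All 4 took the replicate order of most members, and at BCP all their arrays lay below the pollen arrays. For LOC778396 the difference of 1.49 from TCP to mature pollen was the closest of any member's to the limit of 1.5.

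Some members share a transcript cluster and are not independent. The probe set names gave 119 clusters, of which 14 held several members, 34 members in all, and the cluster Ta.654 held 4. Within those 14 clusters the difference from BCP to mature pollen varied by a median of 0.93. The 119 clusters together had 32 further probe sets on the array, of which 13 also had a mature pollen mean of at least 10 and 8 were under 6. Probe sets marked as able to detect several related transcripts (_s_at) made up 12.2% of the members and 4.32% of the array. Those with probes that may cross-hybridise (_x_at) made up 14.4% of the members and 11.05% of the array. Members of these types may therefore pool related transcripts. Most other members were plain _at (67.6% of the members). Whether members of any type separate copies from the rye and wheat genomes was not tested.

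At each threshold, probe sets lay close on both sides. At anther BCP the nearest member was Ta.25923.1.A1_at at 8.02 and the nearest probe set left out was Ta.11190.1.A1_at at 7.98. In mature pollen they were Ta.14618.2.A1_a_at at 10.02 and Ta.4319.2.S1_a_at at 9.98. In anthers at TET they were Ta.3924.1.A1_at at 5.98 and Ta.27028.1.S1_at at 6.01. The ovary cap at TCP lay between Ta.4494.3.S1_x_at at 5.94 and Ta.11245.1.S1_at at 6.25, and the stigma cap between Ta.10393.1.S1_at at 5.95 and Ta.3717.1.A1_s_at at 6.02. For the difference between mature pollen and anther TCP, TaAffx.12419.3.A1_at was left out at 1.51. The last one left out by the stigma cap shares its cluster with the member Ta.3717.1.A1_at.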

How the data were processed

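Biotin-labelled cRNA from each triticale sample was hybridised to its own single-colour array, 39 in all. The log2 values deposited by the authors come from RMA, per the submitters' processing notes. The RMA version is not given in the sources used here, nor whether the arrays were run through it together. RMA forces arrays to a common distribution, so levels are relative within an array. Arrays have no read depth, and their number, 3 per group, limits the precision.

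The rule was read as dropping AFFX controls and probe sets with a named (non-LOC) gene symbol, which left 61160. A level is the mean log2 value of a group, with its SD (n = 3). Tests used limma 3.58.1 (R 4.3.3), with 13 group means in lmFit, contrasts and eBayes (26 residual and 7.49 prior degrees of freedom), over 61204 probe sets after 86 controls were left out, with no filter on dim signals. The method was tested on simulated data. Replicate numbers were checked for pairing: the deviations of same-numbered arrays correlated at -0.134 to 0.171, and no comparison had every pair over 0.1, so the numbers were not treated as pairs. Each p-value sets a difference between group means against the spread of arrays within all 13 groups. For Ta.10434.1.A1_at against ovary at UNM it was larger with the compared groups fitted alone (limma, adjusted p = 6.8e-09).

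The members, lists and comparisons were chosen with earlier results of these data known. Named are members with a symbol, the 4 brightest in mature pollen, the 2 highest and 2 lowest at anther UNM, the 2 largest differences each way from BCP to pollen, the 2 largest called each way per comparison, the 2 with the largest SD at BCP, and those nearest each threshold; others are marked as named after their values were seen. Gene lists by function could not be used, since the 2007 annotation gave no member a description.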

Additional observations from a re-analysis of the deposited data

Results flagged for a closer look

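Ta.3792.1.S1_at changed differently in stigma and ovary from UNM to BCP. The stigma step was 2.81 and the ovary step 1.13, and a test of the difference between them gave 1.68 ± 0.49 (SE) on the log2 scale (limma, adjusted p = 0.034). It was the single member called in that test, with 1.94% called higher and 1.35% called lower over all probe sets. All 3 stigma arrays at BCP lay above the highest at UNM, and so did the 3 ovary arrays. The direction held in every alternative tried, but the call did not: the adjusted p was 0.14 with the compared groups fitted alone, 0.16 and 0.12 without stigma UNM replicates 2 and 1, 0.082 without stigma BCP replicate 1, 0.064 and 0.083 without ovary UNM replicates 1 and 3, and 0.054 and 0.099 without ovary BCP replicates 2 and 3. Without stigma UNM replicate 3, the array at 7.87, the difference was 2.37 (adjusted p = 0.00015).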

How the results depend on the processing

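The number of members was 139, and 143 with arrays scaled on the brighter probe sets, 116 with scaling on the hybridisation controls, 99 and 192 with level thresholds 0.5 stricter and looser, and 152 with medians. Leaving out 1 array gave 126 to 163, the extremes being anther BCP replicates 3 and 2. Read as keeping only probe sets with a LOC symbol, the rule gave 4.

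The counts higher in anther at UNM kept within 1.5 times in all alternatives; leaving out 1 array gave 24 to 31 against ovary and 21 to 28 against stigma. Scaling on the hybridisation controls shifted the median of all probe sets by -0.36 and -0.40 and turned the members' medians to -0.21 and -0.34, with 22 and 18 still called higher; brighter-probe scaling shifted the median of all probe sets by 0.11 against ovary. The 2 called lower than stigma became 1 with array weights and 4 with no minimum difference, and 1 to 3 with 1 array left out.

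Counts of 1 or 2 in the pistil comparisons were unstable. For stigma against ovary at UNM, the 1 higher became 0 with the compared groups alone and 3 with no minimum difference, the 1 lower became 0 with brighter-probe scaling or array weights, and both were 0 to 1 with 1 array left out. For ovary from UNM to BCP, the 1 higher became 2 with brighter-probe scaling, the dim filter, the compared groups alone, array weights or the replicate block, 5 with hybridisation-control scaling, and 0 to 2 with 1 array left out. For stigma, hybridisation-control scaling gave 6 higher and 0 lower, no minimum difference gave 5 and 2, and leaving out 1 array gave 0 to 1 lower. The replicate block, with no pairing in the labels, changed no other count by over 1.5 times. The cause of these changes was not tested, apart from those that follow from dropping the minimum difference or an array. The values without single anther BCP arrays and the test of the stigma step against the ovary step were added after the data were seen.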

Other observations

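One stigma array at the tetrad stage carried more of several members than its replicates. In replicate 3 of stigma TET, 7 of the 139 members (5.04%) were at least 1 above both other arrays of the group, where 0.209% of all probe sets were. Replicates 1 and 2 had 0 such members each. Ta.3717.1.A1_at read 7.09 there, against 2.53 and 2.78. The median of the members on that array was 4.38, against 4.04 and 4.08. No test in the report rests on the level of this group, but its spread enters the fit over all groups.

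In anthers at UNM, 6 members were at least 1 below both other arrays in replicate 3 (4.32%, against 0.319% of all probe sets) and 4 were at least 1 above both others in replicate 2 (2.88%, against 0.0980%). The members' medians on the 3 arrays, 4.27, 4.43 and 4.27, were highest in replicate 2.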
